A study of Mus musculus with 6 samples.

Results

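The NRF2 and thioredoxin antioxidant genes were read as 10 named genes, chosen by symbol from the 16081 genes listed for every sample. They were Nfe2l2, Keap1, Nqo1, Txnrd1, Srxn1, Txn1, Prdx1, G6pdx, Tkt and Taldo1. All 10 were listed, all 10 passed the filter on low counts, and 11552 genes in all were tested. RNA was sequenced from the established mouse lung carcinoma line Lewis in 2 groups of 3 samples. The control group received DMSO, the vehicle, and the other group received SD70, an inhibitor of the histone demethylase KDM4C, both for 24 hours. Both groups were the same unmodified line grown in DMEM with serum, so the data describe a single line in culture. The SD70 dose of this experiment is not given in the sources used here, and its labels do not say what separates the 3 samples of a group, while the study's methods say in general that experiments were repeated independently. The p-values measure the spread between these samples. For the edgeR test below, that spread was estimated with help from all genes tested.

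NRF2, the product of Nfe2l2, is a transcription factor that switches on detoxifying and antioxidant genes when cells meet oxidants or electrophiles. In resting cells KEAP1 holds NRF2 and hands it to a CUL3 ubiquitin ligase for degradation, so much of the control of NRF2 is on the protein and is not seen in RNA. In the nucleus NRF2 pairs with a small MAF protein on the antioxidant response element, and loss of KEAP1 control is a known event in lung cancer. The thioredoxin system carries electrons from NADPH through thioredoxin reductase to thioredoxin and on to peroxiredoxins, which destroy peroxide, and the pentose phosphate enzymes supply the NADPH.

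The message for the factor rose with SD70, that for its inhibitor fell, and the 8 enzyme and redox genes went in different directions. Of the 10 genes, 2 rose, 3 fell and 5 did not pass the test, at an adjusted p under 0.01 in the quasi-likelihood test of edgeR, adjusted by Benjamini-Hochberg over all genes tested. Txnrd1 and Nfe2l2 rose, while Srxn1, Keap1 and Prdx1 fell. Among all genes tested, 49.9% passed in either direction, 25.8% higher and 24.2% lower, so 5 of 10 is a share like that of the background. Among the 6410 genes at least as abundant as Nqo1, the lowest of the 10 by normalised count, 56.3% passed, 30.8% higher and 25.6% lower. The changes were small. No member reached a fold change of 2 with the same adjusted p, which 5.9% of all genes did. The median log2 fold change of the 10 was -0.12 against 0.00 (-0.00432 before rounding) for all genes tested, and the median absolute log2 fold change was 0.20 against 0.25.

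The libraries held between 15276744 and 17060424 expected counts, and SD70 replicate 3 was the smallest. Kdm4c itself, whose protein and not message is the target of SD70, had 753 ± 34.6 normalised counts under DMSO and 765 ± 34.2 after SD70 treatment (SD, n = 3 each; edgeR adjusted p = 0.769). Of the markers of a carcinoma line, Krt8 had 2382 to 4150 counts and Vim, a mesenchymal filament gene, 44823 to 73431, while Epcam, Cdh1, Krt19 and Sftpc did not exceed 1 count in any sample. The 7 markers of this list summed to 70305 to 77450 counts under DMSO and 47237 to 54394 under SD70, and the 3 that could be tested, Krt8, Krt18 and Vim, all fell. The summed counts of 7 immune cell markers were 270 to 283 under DMSO and 188 to 217 with SD70, with Ptprc at 0 under DMSO and at most 2 with SD70. Cd68 made up most of that sum at 155 to 253 counts and fell by 0.48 on the log2 scale (edgeR adjusted p = 0.000121), while Lyz2, at 11 to 26 counts, had a log2 fold change of 0.79 that did not pass (edgeR adjusted p = 0.0256). Those of 6 endothelial and stromal markers were 3454 to 3537 under DMSO and 3273 to 3411 with SD70, with Pecam1 and Kdr at 4 counts or fewer and Cdh5, another endothelial marker, at 56 to 65 counts (edgeR adjusted p = 0.503). Within that list Pdgfra fell by 1.00 on the log2 scale, Pdgfrb rose by 1.54 and Dcn fell by 0.19 (edgeR adjusted p = 0.00719). The part of these marker changes in the results on the 10 genes was not tested.

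The antioxidant response element has the core TGACNNNGC, where N is any base. It was searched on both strands of the RefSeq promoter windows of GRCm38.p6, each of which runs from 250 bases before a start site to 50 bases after it. The 10 genes had 12 such windows, of which 3 belong to Txnrd1, and 5 windows in 5 genes held a match. Among all 32851 windows 12.4% held one, and among all 27025 genes with a window 14.0% held one in at least 1 window. The 5 matches are shown because they stand in 2 genes that rose, 2 that fell and 1 that did not pass the test. Each line gives 30 bases, 5′ to 3′ on the strand on which the core reads TGACNNNGC, with the core in capitals.
Nfe2l2: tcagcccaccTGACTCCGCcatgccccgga
Txnrd1: ccgtgtcagaaTGACAAAGCaaaaatccag
Srxn1: gtgtctcactcTGACCTAGCtgcccactgc
Prdx1: cctacgggggaTGACTCAGCgctttccctg
G6pdx: ggcgtgtgcttTGACTGAGCtgacccgcct

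The Nfe2l2 sequence is at chr2:75704884-75704913 on the minus strand, and its core begins 240 bases before the start site. The Txnrd1 sequence is at chr10:82859104-82859133 on the minus strand. The far end of its core is 92 bases before the start site at 82859206, which is one of 3 annotated starts of the gene. The Srxn1 sequence is at chr2:152105542-152105571 on the minus strand, within the transcribed part, and its core spans bases that begin at base 29 of the transcript. The Prdx1 sequence is at chr4:116685456-116685485 on the minus strand, with the far end of its core 133 bases before the start site. Its core holds TGACTCA, the letters of an AP-1 site, which overlaps the antioxidant core and which the other 4 cores lack. The G6pdx sequence is at chrX:74428918-74428947 on the plus strand, with the far end of its core 57 bases before the start site. The windows of Keap1, Nqo1, Txn1, Tkt and Taldo1 held no such letters. Bases outside the windows were not searched, so an element further from a start site would not be seen. A match is a run of letters and not a measured binding site. With the looser core TGANNNNGC, 8 of the 10 genes had a match, against 45.0% of all genes.

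Nfe2l2 (NCBI Gene 18024, chromosome 2, 75675513 to 75704663) encodes NRF2 itself. Its level, as FPKM, was 147, 145 and 148 across the DMSO samples and 216, 199 and 207 across those given SD70. Every SD70 sample lay well above every DMSO sample, and the DMSO samples were nearly equal. The normalised count rose from 5592 ± 85.3 to 8070 ± 333 (SD, n = 3 each), which is 1.44-fold. The log2 fold change was 0.53 (standard error 0.0488, edgeR adjusted p = 2.12e-11). It ranked 1265 from the highest among the 11552 genes tested, so 89.0% of genes had a lower log2 fold change.

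Keap1 (NCBI Gene 50868, chromosome 9, 21229730 to 21239332), the adaptor that holds NRF2 for degradation, was the least abundant of the 10 per length. Its FPKM was 18.2, 18.1 and 19.2 under DMSO and 14.1, 15.8 and 14.3 with SD70. The groups did not overlap. The normalised count fell by 18.5% as fitted, from 967 ± 26.3 to 788 ± 42.6 (SD, n = 3 each), for a log2 fold change of -0.29 (standard error 0.0612, edgeR adjusted p = 9.92e-05). Only 21.6% of all genes tested had a lower log2 fold change.

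The ratio of Nfe2l2 to Keap1 restates the changes of the 2 genes and is not a separate result. Nfe2l2 was higher and Keap1 lower in every SD70 sample, so their ratio had to separate the groups. The ratio of Nfe2l2 to Keap1, on the FPKM scale, was 8.12, 8.03 and 7.74 under DMSO and 15.3, 12.6 and 14.5 under SD70. Its mean log2 value was 0.82 higher with SD70, and the groups did not overlap (two-sided exact permutation test, p = 0.1, which no result of 3 samples against 3 can go below; 0.2 after adjustment over the 6 ratios compared). A ratio within a sample does not depend on how libraries are scaled. The rise of Nfe2l2 made up more of the change in the ratio than the fall of Keap1, with log2 fold changes of 0.53 and -0.29.

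**Figure D1:**
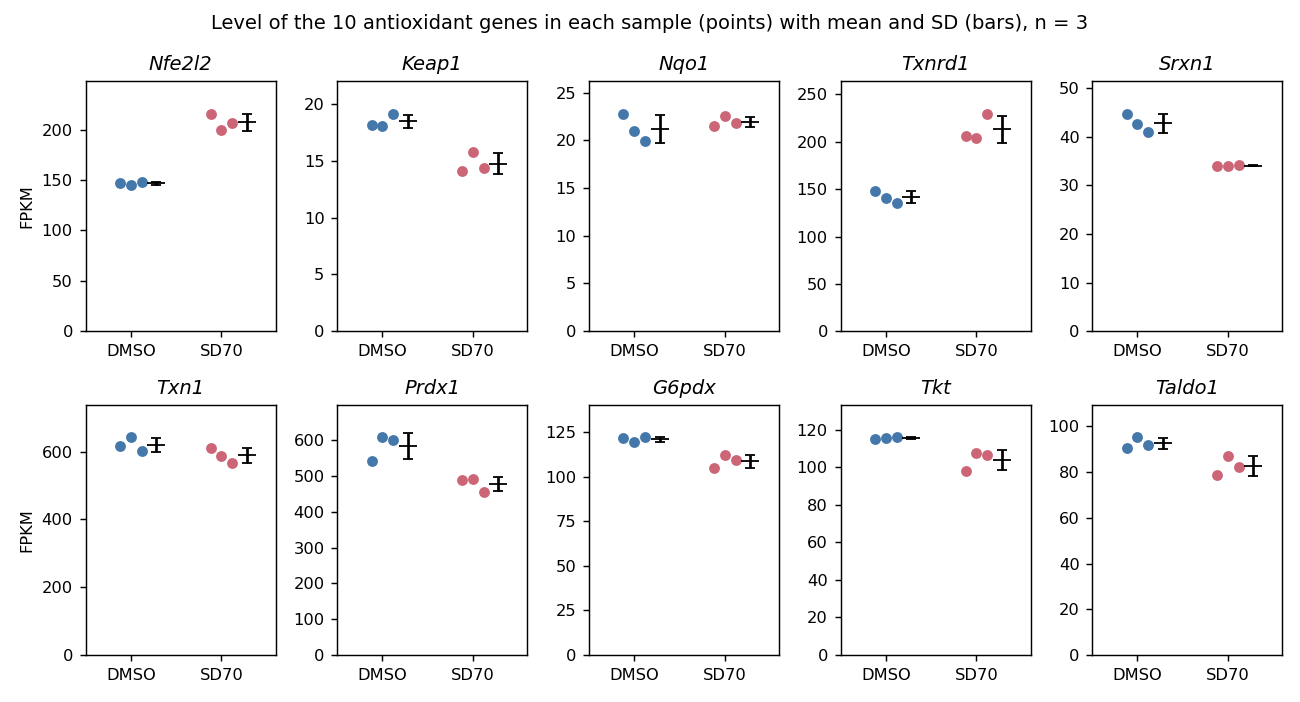
FPKM of each of the 10 genes (vertical axes, linear from 0, each with its own scale) in the DMSO samples (blue) and SD70 samples (red); points are samples and bars the mean with SD, n = 3. Nfe2l2 and Txnrd1 are higher in every SD70 sample, Nqo1 and Txn1 overlap between groups, and the other 6 genes are lower in every SD70 sample.

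Nqo1 (NCBI Gene 18104, chromosome 8, 107388225 to 107403205) encodes the NADPH-using quinone reductase that is widely read as a reporter of NRF2 activity. Its FPKM was 22.8, 20.96 and 19.9 under DMSO and 21.5, 22.5 and 21.8 with SD70. All 3 SD70 values lay within the range of the DMSO values. The normalised counts were 480 ± 29.8 and 505 ± 13.5 (SD, n = 3 each), with a log2 fold change of 0.07 (standard error 0.0726, edgeR adjusted p = 0.388). The 95% interval of that log2 fold change ran from -0.07 to 0.22, so a rise as large as that of Nfe2l2 lay outside it. Leaving out 1 sample at a time gave log2 fold changes of Nqo1 from 0.03 to 0.12, with edgeR adjusted p values from 0.186 to 0.789. The FPKM ratio of Nqo1 to Nfe2l2 was 0.155, 0.144 and 0.134 under DMSO and 0.0994, 0.113 and 0.105 with SD70, again without overlap (two-sided exact permutation test, p = 0.1, adjusted 0.2).

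Txnrd1 (NCBI Gene 50493, chromosome 10, 82833951 to 82897724) encodes the cytosolic thioredoxin reductase, a selenoprotein that passes electrons from NADPH to thioredoxin. It had the largest change of the 10. Its FPKM was 148, 140 and 136 under DMSO and 206, 204 and 230 with SD70. No SD70 sample came near the DMSO range, and SD70 replicate 3 was the highest. The normalised count rose 1.54-fold, from 7508 ± 326 to 11594 ± 786 (SD, n = 3 each), for a log2 fold change of 0.63 (standard error 0.0520, edgeR adjusted p = 1.53e-12). It ranked 984 from the highest among all genes tested. The counts are per gene and do not tell its 3 annotated starts apart.

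Txn1 (NCBI Gene 22166, chromosome 4, 57943373 to 57956411), the thioredoxin that this reductase serves, was the most abundant of the 10 per length. Its FPKM was 618, 642 and 601 under DMSO and 612, 589 and 567 with SD70. The groups overlapped through SD70 replicate 1. The log2 fold change was -0.05 with a 95% interval from -0.15 to 0.05 (edgeR adjusted p = 0.359). Leaving out 1 sample at a time gave -0.08 to -0.03, with edgeR adjusted p values from 0.171 to 0.681. The FPKM ratio of reductase to thioredoxin was 0.240, 0.218 and 0.226 under DMSO and 0.336, 0.347 and 0.405 with SD70. Its mean log2 value was 0.66 higher with SD70 and the groups did not overlap (two-sided exact permutation test, p = 0.1, adjusted 0.2).

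Prdx1 (NCBI Gene 18477, chromosome 4, 116685599 to 116700000) encodes the abundant cytosolic peroxiredoxin that reduces peroxide with electrons from thioredoxin. Its FPKM was 542, 608 and 600 under DMSO and 489, 491 and 456 with SD70. The groups did not overlap, and DMSO replicate 1 was the nearest to the SD70 samples. The normalised count fell from 11909 ± 791 to 9947 ± 456 (SD, n = 3 each), for a log2 fold change of -0.26 (standard error 0.0520, edgeR adjusted p = 6.01e-05).

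Srxn1 (NCBI Gene 76650, chromosome 2, 152105524 to 152111376) encodes sulfiredoxin, which restores peroxiredoxins that peroxide has overoxidised and is a known NRF2 target. Its FPKM was 44.8, 42.6 and 40.9 under DMSO and 34.1, 34.0 and 34.1 with SD70. The SD70 samples were almost identical and all lay below the DMSO samples. The normalised count fell from 1848 ± 76.7 to 1505 ± 3.24 (SD, n = 3 each), for a log2 fold change of -0.30 (standard error 0.0534, edgeR adjusted p = 1.33e-05). Sulfiredoxin and its substrate fell by like amounts, and their FPKM ratio was 0.0682 to 0.0825 under DMSO and 0.0692 to 0.0749 with SD70 (difference of mean log2 ratio -0.04, two-sided exact permutation test, p = 0.8, adjusted 0.9). The sign of that difference turned to 0.04 without DMSO replicate 1.

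**Figure D2:**
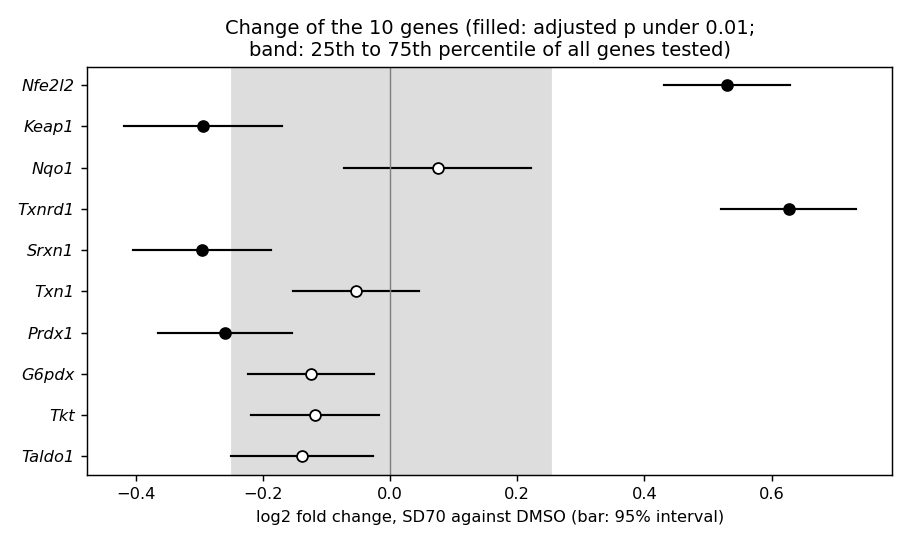
Log2 fold change of each of the 10 genes, SD70 against DMSO (horizontal axis), with its 95% interval from the edgeR fit; filled points have an adjusted p under 0.01 and the grey band runs from the 25th to the 75th percentile of all genes tested, -0.25 to 0.25. Txnrd1 and Nfe2l2 lie above the band, Keap1, Srxn1 and Prdx1 just below it, and the other 5 within it.

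G6pdx, Tkt and Taldo1 encode enzymes of the pentose phosphate pathway. G6pdx (NCBI Gene 14381, chromosome X, 74409483 to 74428880) makes the first NADPH of the oxidative branch. Its FPKM was 122, 120 and 122 under DMSO and 105, 112 and 109 with SD70. The groups did not overlap, yet the log2 fold change of -0.12 (standard error 0.0487, edgeR adjusted p = 0.0269) missed the threshold. Tkt (NCBI Gene 21881, chromosome 14, 30549131 to 30574724), transketolase of the non-oxidative branch, had FPKM of 115, 115 and 116 under DMSO and 97.8, 107 and 107 with SD70. Its DMSO samples were, by FPKM, the most alike of any of the 10 genes in either group apart from the SD70 samples of Srxn1. The log2 fold change was -0.12 (standard error 0.0494, edgeR adjusted p = 0.0378). Taldo1 (NCBI Gene 21351, chromosome 7, 141392160 to 141402976), transaldolase, which works beside transketolase, had FPKM of 90.6, 95.2 and 91.8 under DMSO and 78.7, 87.0 and 82.4 under SD70. The log2 fold change was -0.14 (standard error 0.0549, edgeR adjusted p = 0.0298).

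The 3 pentose phosphate genes thus had adjusted p values between 0.01 and 0.05 and log2 fold changes within 0.02 of one another (-0.12, -0.12 and -0.14). Among the SD70 samples, replicate 1 was the lowest by FPKM and replicate 2 the highest in each of the 3 genes, and all lay below the DMSO samples. Their ratios to one another hardly differed between groups. The FPKM ratio of G6pdx to Tkt was 1.05 ± 0.0133 under DMSO and 1.05 ± 0.0226 with SD70 (SD, n = 3 each; two-sided exact permutation p = 0.9, adjusted 0.9), and that of Tkt to Taldo1 was 1.25 ± 0.0307 and 1.26 ± 0.0318 (SD, n = 3 each; two-sided exact permutation p = 0.8, adjusted 0.9). With library totals alone in place of TMM scaling, all 3 passed the test (edgeR adjusted p = 0.00439 for G6pdx, 0.00682 for Tkt and 0.00637 for Taldo1) and 6 of the 10 genes were lower in place of 3. With that scaling 3165 of all genes tested were lower and 2630 higher, against 2791 and 2976 with TMM. That scaling also moved the median log2 fold change of all genes to -0.04. Without SD70 replicate 1, the log2 fold changes shrank to -0.10 for G6pdx, -0.08 (-0.077 before rounding) for Tkt and -0.10 for Taldo1 (edgeR adjusted p = 0.0895, 0.177 and 0.124). Without DMSO replicate 3 the adjusted p of all 3 also exceeded 0.05 (0.0788, 0.0885 and 0.0607).

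**Figure D3:**
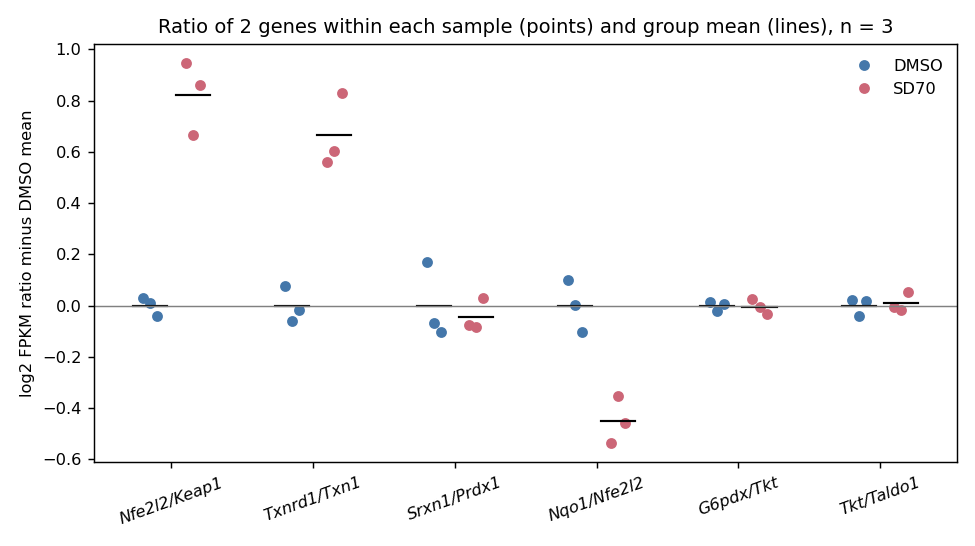
Log2 ratio of the FPKM of 2 genes within a sample, less the mean of the DMSO samples (vertical axis), for 6 pairs of the 10 genes; points are samples, black lines group means, n = 3 per group. Nfe2l2 to Keap1 and Txnrd1 to Txn1 are higher and Nqo1 to Nfe2l2 lower in every SD70 sample, by 0.82, 0.66 and -0.45 on average, and the other 3 pairs overlap.

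By level per length, the order with DMSO was Txn1, Prdx1, Nfe2l2, Txnrd1, G6pdx, Tkt, Taldo1, Srxn1, Nqo1 and Keap1, from 620 to 18.5 FPKM in group means. The ranges of 2 pairs of neighbours overlapped in that order, Txn1 with Prdx1 and Nfe2l2 with Txnrd1. With SD70 the order was the same except that Txnrd1, at 213 FPKM, stood before Nfe2l2, at 207 FPKM, and those ranges again overlapped. With SD70 the ranges of G6pdx and Tkt overlapped too, while Txn1 and Prdx1 no longer did. Summed over the 10 genes, the share of all FPKM was 0.340% to 0.349% under DMSO and 0.336% to 0.343% with SD70, so the group ranges overlapped. In 8 of the 10 genes the normalised counts of the groups did not overlap, against 64.4% of all genes tested and 70.1% of those at least as abundant as Nqo1. Fewer cells expressing a gene and less RNA per cell cannot be told apart in such bulk samples.

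Of the other partners and regulators of NRF2 and factors related to it, 10 of 12 could be tested, 6 rose and 3 fell, with a median log2 fold change of 0.34 against 0.00 for all genes tested. This and the counts of the lists that follow stand beside 25.8% of all genes tested called higher and 24.2% called lower. Nfe2l1, which encodes the related factor NRF1 that drives proteasome genes, rose from 2592 ± 80.5 to 7117 ± 639 normalised counts (SD, n = 3 each; log2 fold change 1.46, edgeR adjusted p = 4.99e-21). Sqstm1, the autophagy receptor p62 that competes with NRF2 for KEAP1, rose from 6773 ± 293 to 12572 ± 1024 (SD, n = 3 each; log2 fold change 0.89, edgeR adjusted p = 9.32e-16). All 3 small MAF genes, partners of NRF2 on DNA, rose, with log2 fold changes of 0.47 for Mafg, 0.46 for Mafk and 0.42 for Maff. Bach1, the repressor that competes for the same DNA element, fell by 0.22 on the log2 scale (edgeR adjusted p = 0.00237). Of the ligase that KEAP1 serves, Cul3 rose (log2 fold change 0.26) and Rbx1 fell (log2 fold change -0.29). Btrc, part of another ubiquitin ligase, also fell (log2 fold change -0.25, edgeR adjusted p = 0.00273). Maff, Bach1, Cul3, Rbx1 and Btrc were named after their values were seen.

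Of 25 further textbook NRF2 targets, 24 could be tested. Of these, 3 rose, 9 fell and 12 did not pass the test, with a median log2 fold change of -0.18. Slc7a11, the cystine importer for glutathione synthesis, rose from 722 ± 28.5 to 2609 ± 175 normalised counts (SD, n = 3 each; log2 fold change 1.85, edgeR adjusted p = 7.23e-24). The other 2 that rose were Gclc, the catalytic subunit of the enzyme that begins glutathione synthesis (log2 fold change 0.32), and Hmox1, heme oxygenase (log2 fold change 0.31), whereas Gclm, the other subunit of that enzyme, fell by 0.21 (edgeR adjusted p = 0.0081). Ephx1, an epoxide hydrolase, Ugdh, which makes UDP-glucuronate, and Trim16 fell, with log2 fold changes of -0.75, -0.68 and -0.63. The others that fell were Cbr3 (35 to 87 counts), Ptgr1, Slc48a1, Blvrb and Esd, with log2 fold changes from -0.70 to -0.25. Among the 12 that did not pass, log2 fold changes ran from -0.25 for Mgst1 to 0.09 for Abcc4. Gsr, Ftl1, Fth1 and Me1 were among these, at -0.04 to 0.08. All targets named here except Slc7a11, Ephx1, Ugdh and Trim16 were named after their values were seen.

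Of 25 other genes of thioredoxin and thiol redox control, among them peroxiredoxins, glutaredoxins, sestrins and methionine sulfoxide reductases, 24 could be tested. Of these, 8 rose and 7 fell, with a median log2 fold change of 0.13. Sesn2, a stress-induced sestrin, rose from 526 ± 3.26 to 3336 ± 395 normalised counts (SD, n = 3 each; log2 fold change 2.66, edgeR adjusted p = 1.75e-20), while its relative Sesn1 fell by 0.58 on the log2 scale. Sesn3, named after its values were seen, fell too, on few reads (12 to 14 counts under DMSO, 2 to 5 under SD70). Txnip, which binds and inhibits thioredoxin, rose from 1484 ± 137 to 3661 ± 327 (SD, n = 3 each; 1.302 on the log2 scale, edgeR adjusted p = 1.10e-13). Glrx, the cytosolic glutaredoxin, fell from 1603 ± 55.3 to 817 ± 60.3 (SD, n = 3 each; log2 fold change -0.97, edgeR adjusted p = 7.24e-16). The other peroxiredoxins were mixed. Prdx3 and Prdx6 rose (log2 fold changes 0.38 and 0.42), Prdx4 and Prdx5 fell (-0.18 and -0.57), and Prdx2 did not pass (-0.11, edgeR adjusted p = 0.066). The mitochondrial pair Txn2 and Txnrd2 did not pass either, with log2 fold changes of 0.15 and 0.30 (edgeR adjusted p = 0.0268 and 0.015). In the fit blocked on replicate number Txnrd2 passed (edgeR adjusted p = 0.00948), as did Msrb2, a methionine sulfoxide reductase (0.0086, against 0.013 without the block), which brought the list to 17 calls. The peroxiredoxins, the mitochondrial pair and Msrb2 were named after their values were seen.

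Of 19 other pentose phosphate and NADPH genes, 15 could be tested, 6 rose and 4 fell, with a median log2 fold change of 0.14. Shpk, sedoheptulokinase, which makes a sugar phosphate of the non-oxidative branch, had the largest log2 fold change of this list, 2.05 (edgeR adjusted p = 1.16e-10), on few reads, with 14 to 32 counts under DMSO and 94 to 96 under SD70. Mthfd2, a mitochondrial folate dehydrogenase, rose (log2 fold change 1.78, edgeR adjusted p = 3.02e-15), as did Aldh1l2, which makes NADPH from mitochondrial formyl-folate (log2 fold change 0.96, edgeR adjusted p = 1.78e-17). Nadk2, the mitochondrial NAD kinase, and Me2, mitochondrial malic enzyme, fell, with log2 fold changes of -0.72 and -0.63. Pgd and Pgls, which complete the oxidative branch after G6pdx, did not pass (log2 fold changes -0.03 and 0.05). Rpia and Rpe, which interconvert the pentose phosphates, rose (0.43 and 0.22). Shpk, Pgd, Pgls, Rpia and Rpe were named after their values were seen.

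Of 9 superoxide and peroxide enzymes, 7 could be tested, 1 rose and 3 fell. Sod2, the mitochondrial superoxide dismutase, rose from 2597 ± 113 to 5905 ± 350 normalised counts (SD, n = 3 each; log2 fold change 1.18, edgeR adjusted p = 8.53e-20). Cat, catalase, and Gpx8, an ER peroxidase, fell by 0.40 and 0.75 on the log2 scale. The third that fell was Sod3, the extracellular superoxide dismutase, named after its values were seen, at 40 to 54 counts under DMSO and 20 to 25 under SD70. Of 7 genes that make, break down or insert selenocysteine, the residue that TXNRD1 carries, or are related to such genes, 3 passed the test and rose. These were Sepsecs (log2 fold change 1.01), Sephs2 (0.36) and Sephs1 (0.32), of which Sepsecs and Sephs2 act in the synthesis of selenocysteine. The other 4 did not pass, with log2 fold changes from 0.00 to 0.21.

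**Figure D4:**
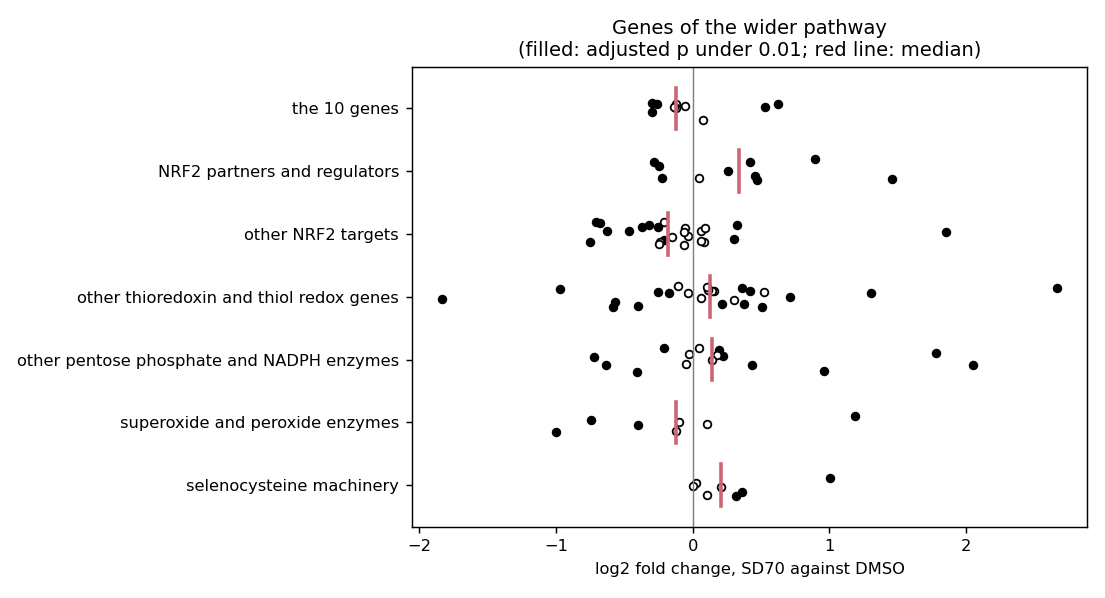
Log2 fold change, SD70 against DMSO (horizontal axis), of every tested gene of 7 lists (rows; vertical jitter has no meaning); filled points have an edgeR adjusted p under 0.01 and red lines are medians, -0.12 for the 10 genes and 0.34 for the NRF2 partners and regulators. The 10 genes lie within 0.63 of 0, a narrower span than in each of the other 6 lists.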

How the data were processed

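RNA-seq of 6 samples was used. The authors aligned clean BGISEQ-500 reads to GRCm38.p6 with HISAT. The submitters' processing notes name StringTie 1.3.3b and build mm8, with no role. For each gene and sample the authors deposited an expected count, not normalised, and a value headed only as expression. The deposited value was read as FPKM, that is, counts divided by length and library total before deposit, since count, value and library total imply a length 191 bases (median) short of the transcript in 181 genes with 1 transcript. The counting tool is not given in the sources used here. Expected counts were rounded (all counts of the 10 genes were whole), filtered by filterByExpr, scaled by TMM (factors 0.984 to 1.02) and tested with robust glmQLFit and glmQLFTest in edgeR 4.0.16 (R 4.3.3). Normalised counts are scaled to the mean effective library size. Standard errors come from the F statistic.

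Members and gene lists were chosen with earlier results of these data known. Named genes are the 10 members, up to 4 called genes per list with the largest absolute log2 fold change and a mean normalised count of at least 100, the markers and Kdm4c. Samples of a group differed by more than sampling noise (chi-square per gene 2.12 to 4.97). Same-numbered samples of the 2 groups deviated together (Pearson r of 0.181, 0.283 and 0.172 across 9623 genes), so the numbers of the labels were taken as pairs in the fit with a block. Counts were simulated for 11552 genes. Of those that passed the filter again, edgeR called 82 of 100 genes changed by 0.5 on the log2 scale, 97 of 99 changed by 1, and 1 of 11274 unchanged genes. The simulation changed far fewer genes than were called in the data and held no pairs of samples. It held no change smaller than 0.5, so it does not cover the smaller changes of most of the 10 genes. Gene positions and promoter windows are from RefSeq on GRCm38.p6, and all 10 genes matched by gene identifier. The alternatives were other scalings and filters, the replicate block, DESeq2 1.42.0, limma 3.58.1 on log2(FPKM + 1) and log2(FPKM + 0.1), other thresholds and leaving out each sample. Protein motifs were not analysed here.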

Additional observations from a re-analysis of the deposited data

How the results depend on the processing

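The 5 calls among the 10 genes kept their direction and passed the test at the same threshold under every one of 15 alternative fits, with log2 fold changes from 0.49 to 0.56 for Nfe2l2, 0.56 to 0.66 for Txnrd1, -0.34 to -0.27 for Keap1, -0.33 to -0.26 for Srxn1 and -0.31 to -0.23 for Prdx1. With the replicate number as a block, 2 members were higher and 3 lower, as without it, 3043 genes in all were higher and 2870 lower, and no call on a member changed. Of the wider lists, the block changed only the thioredoxin and thiol redox genes, from 15 to 17 calls, by adding Txnrd2 and Msrb2. Without each sample in turn, 2571 to 2804 genes were higher and 2470 to 2570 lower, and the members called stayed at 2 and 3. The calls in the wider lists ranged from 8 to 9 of the NRF2 partners and regulators (9 with all samples), 9 to 12 of the other NRF2 targets (12), 13 to 16 of the thioredoxin and thiol redox genes (15), 10 to 11 of the pentose phosphate and NADPH genes (10) and 4 to 5 of the superoxide and peroxide enzymes (4), with 3 selenocysteine genes throughout. G6pdx, Tkt and Taldo1 depended on scaling and on single samples. Their adjusted p values were 0.0895, 0.177 and 0.124 without SD70 replicate 1, and 0.0788, 0.0885 and 0.0607 without DMSO replicate 3. Without DMSO replicate 1, G6pdx was at 0.0541 and Tkt at 0.0559, without DMSO replicate 2, Tkt was at 0.0647 and Taldo1 at 0.0913, and without SD70 replicate 3, Taldo1 was at 0.0548. With library totals alone their log2 fold changes were -0.16, -0.16 and -0.18, all past the threshold. That made 6 members lower, with 3165 of all genes tested lower and 2630 higher. G6pdx also passed with limma on log2(FPKM + 1) at -0.16 and on log2(FPKM + 0.1) at -0.16. At an adjusted p under 0.05, 2 members were higher and 6 lower, with 3545 and 3408 of all 11552 genes tested. A fold change of at least 2 left 0 members higher and 0 lower, with 380 and 301 of all genes. Testing against a log2 fold change of 0.5 (glmTreat) left 0 and 0 members, with 666 and 451 of all genes. These stricter rules left 1 and 2 NRF2 partners and regulators, 1 and 3 other NRF2 targets, 3 and 3 thioredoxin and thiol redox genes, 2 and 4 pentose phosphate and NADPH genes, 1 and 2 superoxide and peroxide enzymes, and 1 and 1 selenocysteine genes. The mean log2 ratios that overlapped between groups had no stable sign. Leaving out 1 sample at a time gave -0.0952 to 0.0421 for Srxn1 to Prdx1, above 0 without DMSO replicate 1. It gave -0.0204 to 0.0107 for G6pdx to Tkt, above 0 without DMSO replicate 1 or SD70 replicate 3, and -0.0102 to 0.0235 for Tkt to Taldo1, below 0 without DMSO replicate 2 or SD70 replicate 3. Each of the 10 genes had at least 454 counts in every sample, and whether depth limited their tests was not tested. With 3 samples per group, an exact test of a ratio cannot go below p = 0.1.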
